A study of Mus musculus with 11 samples.

Results

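The genes described here encode enzymes of cholesterol synthesis, read in the adventitia of the mouse abdominal aorta. They were chosen by name, as every probe set whose only gene symbol in the platform annotation was Hmgcs1, Fdps, Fdft1, Sqle, Lss, Cyp51, Sc5d or Insig1. Of these 8 genes, 7 had such a probe set, and Insig1 was not analysed here. The 7 genes were read by 19 of 22626 probe sets. The filter on low signals kept 14 of the 19 for testing, among 14988 probe sets of the array, and each of the 7 genes kept at least 1.

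Messenger RNA was measured on 11 Affymetrix arrays of adventitia, the connective tissue coat around the artery, from male mice aged 78 weeks and fed normal chow. Of these, 4 arrays held adventitia with artery tertiary lymphoid organs (ATLO, lymphoid aggregates beside the plaques) from the atherosclerotic lesion area of Apoe-deficient mice of the strain B6.129P2-Apoe<tm1Unc>/J. Another 4 held adventitia from outside the lesion area of the same strain, called outside-lesion adventitia here although the series' design text speaks of mice without lesions. The remaining 3 held adventitia of wild-type C57BL mice, whose sample titles carry the letters PNS, unexplained in the labels and absent from the titles of the Apoe-deficient samples. Apolipoprotein E is missing throughout the body of the mutant mice, not in the adventitia alone, and lipoprotein remnants build up in their blood. The Apoe-deficient samples each pooled 200 sections of 10 micrometres and were amplified by in vitro transcription for 68 h after a phenol and chloroform extraction, whereas the wild-type samples were extracted with a lipid tissue kit and amplified for 24 h. Apoe itself read 86.9 to 150.2 in ATLO, 45.9 to 179.7 outside the lesion and 11969 to 13164 in wild type, so each array showed the Apoe level of its labelled genotype. In any comparison with wild type, genotype and RNA preparation therefore cannot be told apart. Whether the samples within a group stem from different mice is not in the labels, so p-values refer to the variation among these samples only, which could be technical.

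Cells build cholesterol from acetyl-CoA. Hmgcs1 makes HMG-CoA, which is reduced to mevalonate and turned into isoprenoid units, Fdps joins these to farnesyl diphosphate, and Fdft1 joins farnesyl diphosphate to squalene. Sqle oxidises squalene, Lss closes the rings to lanosterol, and Cyp51 and Sc5d are among the enzymes that turn lanosterol into cholesterol. The genes are known as targets of the transcription factor SREBP-2, which is released when sterols in the endoplasmic reticulum run low and is held back when they are plentiful, and SREBPs bind their targets beside the factors NF-Y and Sp1.

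The stretches of 250 bases before the transcription start are shown because these genes are known to share SREBP with NF-Y as regulators there. Over the arrays, the signals of the 7 genes varied together to different degrees. Hmgcs1 correlated with Lss, Cyp51 and Sc5d at Pearson r = 0.42, 0.33 and 0.47. For deviations from the group means these values were -0.22, -0.05 and -0.21. Lss with Cyp51, Lss with Sc5d and Cyp51 with Sc5d gave r = 0.79, 0.82 and 0.84, and 0.69, 0.5 and 0.83 for the deviations. Hmgcs1 with Fdft1 gave 0.77, and 0.59 for the deviations. A link between these correlations and the promoter sequences was not tested. RefSeq's promoter table (GRCm38.p6) held 4 of the 7 genes, Hmgcs1 (chr13:119690101-119690350, plus strand), Lss (chr10:76531355-76531604, plus strand), Cyp51 (chr5:4104698-4104947, minus strand) and Sc5d (chr9:42264301-42264550, minus strand). Capitals mark CCAAT on either strand (ATTGG when read from the other), the core bound by NF-Y, and in Hmgcs1 also a match to TCACNCCAC, a form of the sterol regulatory element.
Hmgcs1: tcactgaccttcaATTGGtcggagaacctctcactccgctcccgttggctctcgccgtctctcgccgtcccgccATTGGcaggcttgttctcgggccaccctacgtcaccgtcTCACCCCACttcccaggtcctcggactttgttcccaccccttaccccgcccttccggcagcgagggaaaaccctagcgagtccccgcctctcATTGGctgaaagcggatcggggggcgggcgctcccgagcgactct
Lss: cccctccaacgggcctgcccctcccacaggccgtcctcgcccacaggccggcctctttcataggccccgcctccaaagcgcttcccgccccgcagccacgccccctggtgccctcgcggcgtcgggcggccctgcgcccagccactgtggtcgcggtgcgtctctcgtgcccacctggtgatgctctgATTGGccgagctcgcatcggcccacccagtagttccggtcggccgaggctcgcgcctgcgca
Cyp51: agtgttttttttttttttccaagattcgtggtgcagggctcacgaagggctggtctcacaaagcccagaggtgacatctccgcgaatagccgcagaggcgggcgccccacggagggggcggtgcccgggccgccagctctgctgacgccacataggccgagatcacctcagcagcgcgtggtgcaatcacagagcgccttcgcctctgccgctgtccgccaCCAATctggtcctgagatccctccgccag
Sc5d: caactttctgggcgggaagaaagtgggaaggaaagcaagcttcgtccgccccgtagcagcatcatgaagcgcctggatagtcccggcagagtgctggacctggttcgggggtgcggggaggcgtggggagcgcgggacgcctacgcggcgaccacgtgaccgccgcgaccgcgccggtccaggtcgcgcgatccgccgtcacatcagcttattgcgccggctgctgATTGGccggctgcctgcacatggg

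CCAAT stood in all 4 of these promoters, and in a promoter of each of the 10 other sterol enzymes tested below, against 33.8% of the 32851 promoters of the table. A listed gene counts here if any of its promoters matches, whereas the share over the table counts each promoter singly. The Hmgcs1 stretch held it 3 times and the other stretches once each. In Lss, Cyp51 and Sc5d it began 62, 29 and 24 bases before the start. GGGCGG, the core bound by Sp1 and not capitalised above, was in 4 of 4 and in 9 of the 10, against 32.7% of all promoters. TCACNCCAC was in 1 of the 4, Hmgcs1 (137 bases before the start), and in 0 of the 10 other sterol enzymes, against 1.05% of all promoters. Both strands were searched, and matches to different motifs overlapped 0 times in the 4 stretches. A match is a run of letters, not a shown binding site.

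Most of the 7 genes were lower in ATLO adventitia than in wild-type adventitia, and fewer differed between ATLO and outside-lesion adventitia. Against wild type, Hmgcs1, Fdps, Fdft1, Lss and Sc5d fell, with log2 changes between -1.70 and -0.79. Against outside-lesion adventitia, Fdft1 and Sc5d fell by the probe sets that represent them, and Hmgcs1 by its other 3. No gene of the 7 was called between outside-lesion and wild-type adventitia. Signals are linear intensities as the authors scaled them, and the tests are limma fits on log2 signals over all 11 arrays with Benjamini-Hochberg adjustment over all 14988 probe sets, called at an adjusted p under 0.05. A gene is represented by its tested probe set with the highest mean. These are bulk samples, in which fewer cells of a type and less RNA per cell cannot be told apart.

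**Figure D1:**
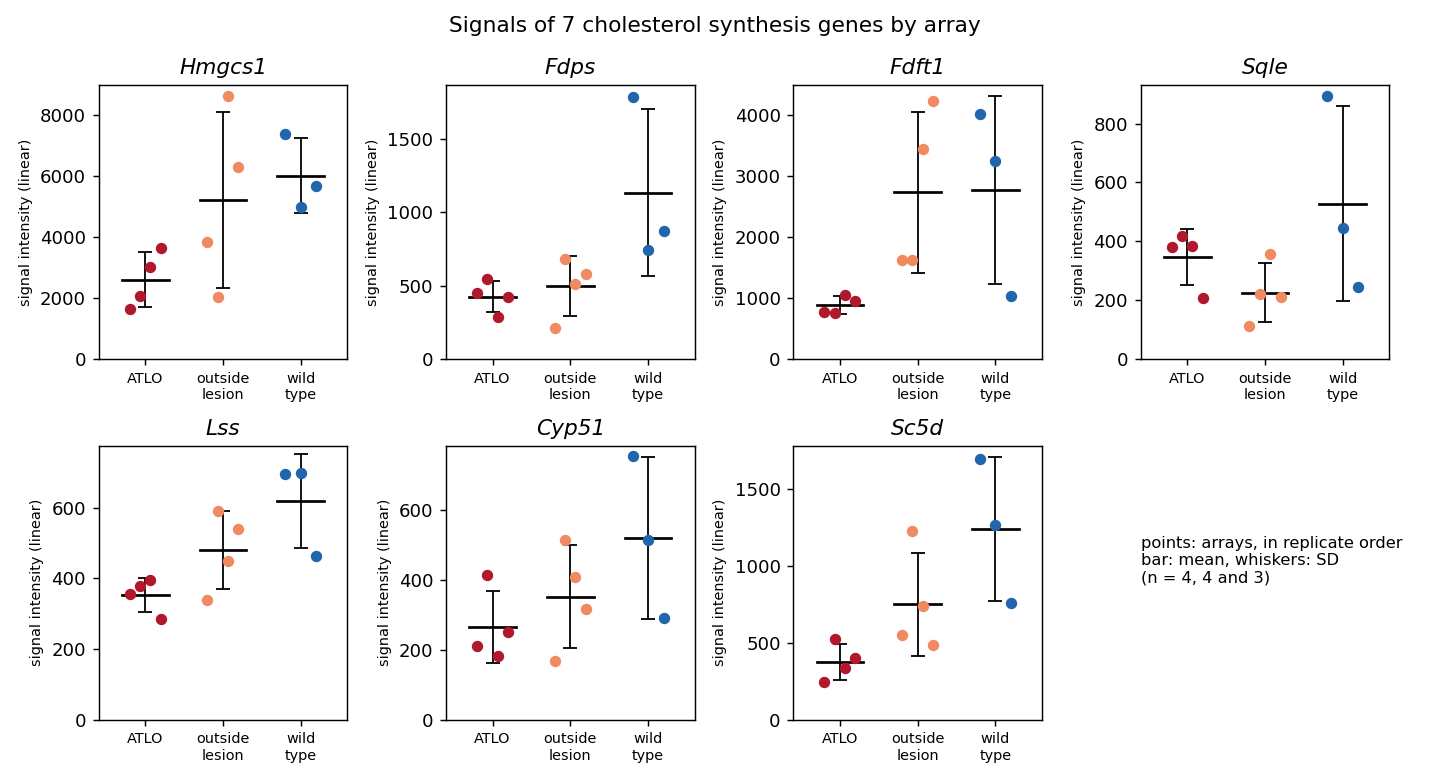
Linear signal intensity of the representative probe set of each of the 7 genes on each array, in ATLO, outside-lesion and wild-type adventitia, with the mean and SD of each group. For Hmgcs1, Fdps, Lss and Sc5d every ATLO array lies below every wild-type array, and Fdft1 separates the ATLO arrays from the outside-lesion arrays.

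Hmgcs1, which opens the pathway (probe set 1433443_a_at, chromosome 13), had signals of 1644, 2080.0, 3011 and 3649 on the ATLO arrays. Its signals were 3847, 2050.1, 8638 and 6312 on the outside-lesion arrays and 7386, 4998 and 5671 on the wild-type arrays. All ATLO arrays lay below all wild-type arrays, while outside-lesion replicate 2 fell within the ATLO range. The change was -1.26 ± 0.41 on the log2 scale (SE) for ATLO against wild type (limma adjusted p = 0.0346), to 41.7% of the wild-type level. Against outside-lesion adventitia it was -0.88 ± 0.38 and not called (adjusted p = 0.0917). The 3 other probe sets of Hmgcs1 were called there, with log2 changes of -1.02, -0.94 and -0.80 (adjusted p = 0.0147, 0.0233 and 0.0315). Against wild type these 3 gave -1.13, -1.01 and -1.24, each called, so all 4 probe sets of Hmgcs1 were called against wild type.

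Fdps, farnesyl diphosphate synthase (probe set 1423418_at, chromosome 3), stands where the isoprenoid branches leave the sterol pathway. It was read at 447.6, 546.5, 287.0 and 423.3 on the ATLO arrays and at 208.5, 684.8, 509.4 and 580.8 on the outside-lesion arrays. Wild-type arrays gave 1790.3, 745.5 and 871.1, above every array of both mutant groups. The log2 change was -1.34 ± 0.39 for ATLO against wild type (limma adjusted p = 0.0225). For outside-lesion adventitia against wild type it was -1.21 ± 0.39, of much the same size, but was not called (adjusted p = 0.103). Between ATLO and outside-lesion adventitia it was -0.13 ± 0.36, with a 95% interval from -0.91 to 0.65. The interval includes changes in either direction.

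Fdft1, squalene synthase (probe set 1438322_x_at, chromosome 14), commits farnesyl diphosphate to sterols. Its signals were 778.3, 751.8, 1054 and 948.7 on the ATLO arrays, against 1626, 1627, 3438 and 4229 on the outside-lesion arrays. No ATLO array reached the lowest outside-lesion array, and the log2 change of -1.51 ± 0.40 (limma adjusted p = 0.0106) was the largest of the 7 genes in this comparison. Wild-type replicates 1 and 2 stood at 4022 and 3239.5, and wild-type replicate 3 at 1041, within the ATLO range. The change against wild type was -1.45 ± 0.43 (adjusted p = 0.0245), and -2.05 without wild-type replicate 3. A second probe set of Fdft1 followed the first, at -1.28 ± 0.30 against outside-lesion adventitia (adjusted p = 0.00520) and -0.95 ± 0.32 against wild type (adjusted p = 0.0422). The name of the representing probe set ends in x_at, a mark of probes that can match other transcripts, and that of the second has no such mark.

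Sqle, squalene epoxidase (probe set 1415993_at, chromosome 15), catalyses a step that is often limiting for cholesterol synthesis. It was called in no comparison. It read 382.0, 416.7, 383.1 and 206.5 on the ATLO arrays, 112.5, 220.3, 357.0 and 211.0 on the outside-lesion arrays, and 892.2, 443.9 and 245.0 on the wild-type arrays. The 3 groups overlap, and the spread within wild type spans most of the values. Its log2 change was 0.69 ± 0.40 against outside-lesion adventitia (limma adjusted p = 0.215), the only estimate of the 7 above 0, and -0.46 ± 0.43 against wild type (adjusted p = 0.461). The 95% interval against wild type, from -1.39 to 0.48, includes falls of the size found for Hmgcs1 and Fdps.

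Lss, lanosterol synthase (probe set 1420013_s_at, chromosome 10), showed the smallest called change against wild type. It had signals of 357.0, 377.7, 394.1 and 284.1 on the ATLO arrays, 339.6, 589.4, 449.0 and 540.0 on the outside-lesion arrays, and 694.0, 697.0 and 463.9 on the wild-type arrays. The change against wild type was -0.79 ± 0.22 (limma adjusted p = 0.0185), with no overlap of arrays. It was -0.42 ± 0.21 against outside-lesion adventitia and not called (adjusted p = 0.139). Another tested probe set of Lss, with lower signals and a wider spread, gave -1.0 ± 0.52 against wild type (adjusted p = 0.172).

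Cyp51, lanosterol demethylase (probe set 1450646_at, chromosome 5), was read at 211.1, 412.3, 181.0 and 251.1 in ATLO, 167.0, 514.0, 407.1 and 316.7 outside the lesion, and 752.9, 513.2 and 291.6 in wild type. The groups overlap and no comparison was called. Its log2 change against wild type was -0.95 ± 0.40 (limma adjusted p = 0.0971), with a 95% interval of -1.81 to -0.08. A second tested probe set gave -0.18 ± 0.42 there (adjusted p = 0.775), with a 95% interval of -1.09 to 0.72 that overlaps the first. Whether the probe sets of Cyp51 differ in size was not tested.

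Sc5d, lathosterol oxidase (probe set 1451457_at, chromosome 9), acts near the end of the pathway and showed the largest fall against wild type. Its signals were 246.4, 524.0, 334.2 and 402.3 on the ATLO arrays, 553.3, 1228, 740.9 and 484.2 on the outside-lesion arrays, and 1696, 1269 and 762.5 on the wild-type arrays. ATLO arrays lay below all wild-type arrays, and outside-lesion replicate 4 lay below ATLO replicate 2. The log2 change was -1.70 ± 0.34 against wild type (limma adjusted p = 0.00338), to 30.8% of the wild-type level, and -0.95 ± 0.32 against outside-lesion adventitia (adjusted p = 0.0359). Another probe set of Sc5d, with signals between 88.3 and 225, gave -0.44 ± 0.28 against wild type and -0.36 ± 0.26 against outside-lesion adventitia, neither called (adjusted p = 0.262 and 0.316).

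**Figure D2:**
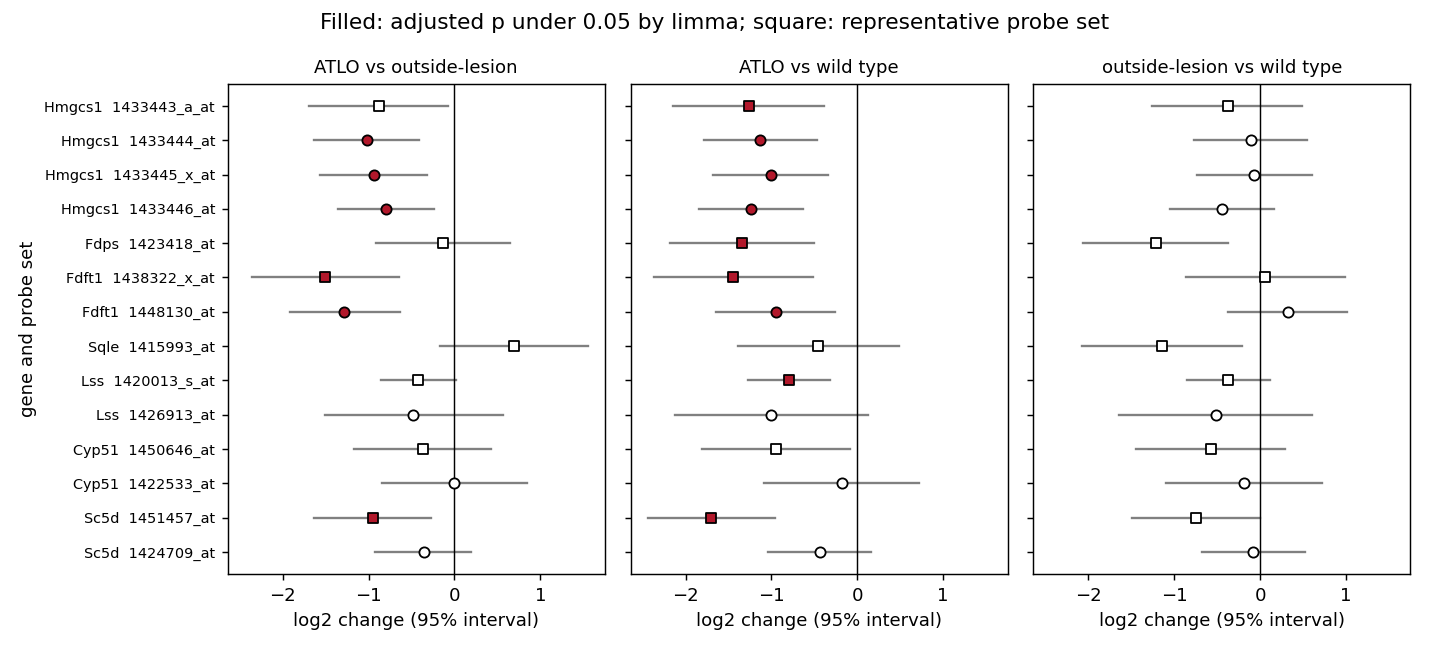
Log2 change with its 95% interval for the 14 tested probe sets of the 7 genes in each comparison. Filled symbols passed the test and squares mark the representing probe set. Against wild type 9 of the 14 are filled for ATLO and 0 for outside-lesion adventitia, and 12 of the 14 estimates for ATLO against outside-lesion adventitia lie below 0. Over all genes, 42.7% of estimates lie below 0 in that last comparison.

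By genes, 5 of 7 were lower in ATLO than in wild type and 0 higher, where 14% of 9055 genes were lower and 13.4% higher. The median log2 change of the 7 was -1.26, against -0.05 over all genes. All 7 estimates were below 0, as were 53.3% of those of all genes. For ATLO against outside-lesion adventitia, 2 of 7 were lower and 0 higher, where 14.9% of genes were lower and 19.8% higher. The median there was -0.42, against 0.11 over all genes. By probe sets, 9 of 14 were lower against wild type and 0 higher (13.4% of all probe sets in either direction), and 6 of 14 were lower and 0 higher against outside-lesion adventitia (13.9% lower and 17.9% higher of all). Arrays of ATLO and wild type did not overlap for 4 of the 7 genes, each lower in ATLO, where 21.9% of all genes were separated that way and 17.7% the other way. Those of ATLO and outside-lesion adventitia did not overlap for 1 of 7, lower in ATLO, where 14.1% of all genes were separated that way and 19.2% the other way.

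Outside-lesion adventitia gave estimates below 0 for 6 of the 7 genes against wild type, where 61.7% of all genes had such estimates. By limma, 0 of 7 were called, where 1.68% of all genes were lower and 1.4% higher. The 3 lowest estimates of the 7 were those of Fdps (log2 change -1.21 ± 0.39, limma adjusted p = 0.103), Sqle (-1.14 ± 0.43, adjusted p = 0.149) and Sc5d (-0.75 ± 0.34, adjusted p = 0.218). The median log2 change of the 7 was -0.57, against -0.12 over all genes. By probe sets 0 of 14 were called, where 1.54% were lower and 1.72% higher, and Fdps alone had arrays that did not overlap, where 13.4% of genes were separated downwards and 7.51% upwards. The comparisons share arrays, so their values for one gene are not independent of each other.

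The counts depended on single arrays. Against wild type, 5 genes called became 1 without wild-type replicate 1, 2 without wild-type replicate 2 and 3 without either ATLO replicate 1 or ATLO replicate 2, and Sc5d was called in each of these cases. Against outside-lesion adventitia, 2 genes became 1 without ATLO replicate 1, 3 or 4 or outside-lesion replicate 3, and with no filter on low signals the count was 0.

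The 5 probe sets of these genes that the filter left out, of Fdft1 (2), Fdps, Lss and Cyp51, had signals between 1.6 and 142, most of them below the floor of 35.1 to which signals were raised. They are not used further.

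Over the rest of the pathway, some enzymes fell and others were not called. Of 10 other sterol enzymes tested, 4 fell and 0 rose in ATLO against wild type (median log2 change -0.43), and 3 fell and 0 rose against outside-lesion adventitia (median -0.26). For this and the lists below, 14% of all genes were lower and 13.4% higher against wild type. Against outside-lesion adventitia 14.9% of all genes were lower and 19.8% higher. Nsdhl, a sterol dehydrogenase of the demethylation steps, averaged 713.4 ± 87.1 in ATLO (SD, n = 4), 1379 ± 333 outside the lesion (n = 4) and 1803 ± 392 in wild type (n = 3). Tm7sf2, a sterol reductase, averaged 143.9 ± 32.7 in ATLO, 266.5 ± 43.4 outside the lesion and 395.0 ± 83.3 in wild type. The log2 changes of Nsdhl were -1.32 ± 0.21 against wild type and -0.93 ± 0.19 against outside-lesion adventitia (limma adjusted p = 7.27e-04 and 0.00244). Those of Tm7sf2 were -1.47 ± 0.24 against wild type and -0.91 ± 0.22 against outside-lesion adventitia (adjusted p = 0.00101 and 0.00759).

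Pmvk, phosphomevalonate kinase, fell most against outside-lesion adventitia, with a mean signal of 357.4 ± 130 in ATLO and 1040 ± 123 outside the lesion (SD, n = 4 each; log2 change -1.60 ± 0.27, limma adjusted p = 5.10e-04). Against wild type it changed by -1.15 ± 0.29 (adjusted p = 0.0106). Idi1, which isomerises the isoprenoid unit, fell against wild type (-1.34 ± 0.31, adjusted p = 0.00720) and was not called against outside-lesion adventitia (-0.48 ± 0.29, adjusted p = 0.226). Mvk, Mvd, Msmo1, Hsd17b7, Ebp and Dhcr7 were called in neither comparison, so lower signals were found early, midway and late in the pathway, with uncalled enzymes between them.

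**Figure D3:**
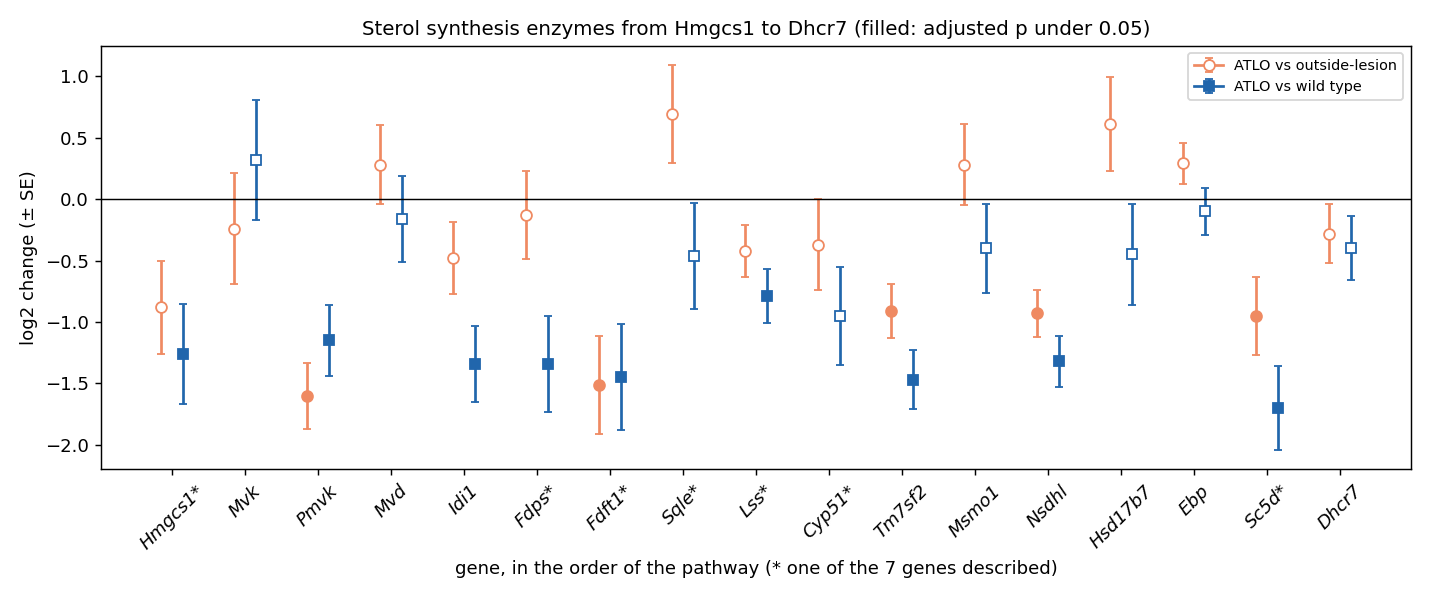
Log2 change with SE of 17 sterol synthesis enzymes in the order of the pathway, for ATLO against outside-lesion adventitia and ATLO against wild type, filled where the adjusted p was under 0.05. Pmvk, Fdft1, Tm7sf2, Nsdhl and Sc5d are filled in both comparisons, and Mvk, Mvd, Sqle, Cyp51, Msmo1, Hsd17b7, Ebp and Dhcr7 in neither.

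Genes of fatty acid synthesis, a pathway driven mainly by SREBP-1, were also lower. The list holds 10 enzymes, Srebf1, which encodes SREBP-1, and Thrsp, a regulator of lipogenesis. Of these 12 genes tested, 8 were lower in ATLO than outside the lesion and 5 lower than in wild type, with 0 higher in either (median log2 change -0.96 against outside-lesion adventitia and -0.81 against wild type). Srebf1 was among the 8 (-0.86 ± 0.25, limma adjusted p = 0.018) and not called against wild type, and Thrsp was among both the 8 and the 5 (-1.66 ± 0.24 against outside-lesion adventitia and -1.14 ± 0.26 against wild type). Elovl6, a fatty acid elongase, averaged 1445 ± 406 in ATLO, 6455 ± 2810 outside the lesion and 6822 ± 2070 in wild type (log2 change -2.06 ± 0.34 against outside-lesion adventitia and -2.23 ± 0.36 against wild type, limma adjusted p = 4.37e-04 and 9.15e-04). Me1, malic enzyme, which supplies NADPH, changed by -1.77 ± 0.47 against outside-lesion adventitia and -1.90 ± 0.51 against wild type (adjusted p = 0.0108 and 0.0145).

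Genes that sense, take up or move sterols moved in both directions or were not called. Of 8 tested, 1 rose and 1 fell against outside-lesion adventitia, and 1 rose and 0 fell against wild type. Srebf2, which encodes SREBP-2, was higher in ATLO than outside the lesion (333.8 ± 80.8 against 204.4 ± 42.4, SD, n = 4 each; log2 change 0.70 ± 0.22, limma adjusted p = 0.0249), where Npc2, a sterol carrier of the lysosome, was lower (-0.59 ± 0.20, adjusted p = 0.0413). Npc1, which passes on sterols from the lysosome, was higher than in wild type (0.99 ± 0.18, adjusted p = 0.00209). The active SREBP-2 protein was not measured. On the isoprenoid branches, 1 of 6 genes tested fell in each comparison, the farnesyltransferase subunit Fnta (-0.59 ± 0.14 against outside-lesion adventitia and -0.86 ± 0.15 against wild type, adjusted p = 0.00513 and 0.00125).

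Of 8 genes tested on a list of sterol export and LXR targets, 3 rose in both ATLO comparisons, while 2 fell against outside-lesion adventitia and 1 against wild type. Abcg1, which exports cholesterol to lipoproteins, averaged 1052 ± 136 in ATLO, 603.6 ± 67.0 outside the lesion and 392.1 ± 99.4 in wild type (log2 change 0.80 ± 0.18 against outside-lesion adventitia and 1.45 ± 0.19 against wild type, limma adjusted p = 0.00362 and 2.66e-04). Ch25h, which makes 25-hydroxycholesterol, a sterol known to hold SREBPs back, rose by 1.49 ± 0.28 against outside-lesion adventitia and 1.32 ± 0.31 against wild type (adjusted p = 0.00134 and 0.00696). Cyp7b1, which hydroxylates such oxysterols further, rose by 1.66 ± 0.32 against outside-lesion adventitia and 1.38 ± 0.34 against wild type (adjusted p = 0.00138 and 0.0101). Ch25h and Cyp7b1 are oxysterol enzymes rather than exporters. Abca1, a cholesterol exporter, and the listed genes Mylip and Cyp27a1 were called in neither ATLO comparison. Those that fell were Lpcat3, a phospholipid remodelling enzyme (-0.66 ± 0.18 against outside-lesion adventitia and -0.58 ± 0.20 against wild type, adjusted p = 0.0153 and 0.0456), and against outside-lesion adventitia Nr1h3, the LXR alpha gene (-0.62 ± 0.21, adjusted p = 0.0378). Between outside-lesion and wild-type adventitia, none of the 44 genes on these 5 lists was called by limma, where 1.68% of all genes were lower and 1.4% higher.

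**Figure D4:**
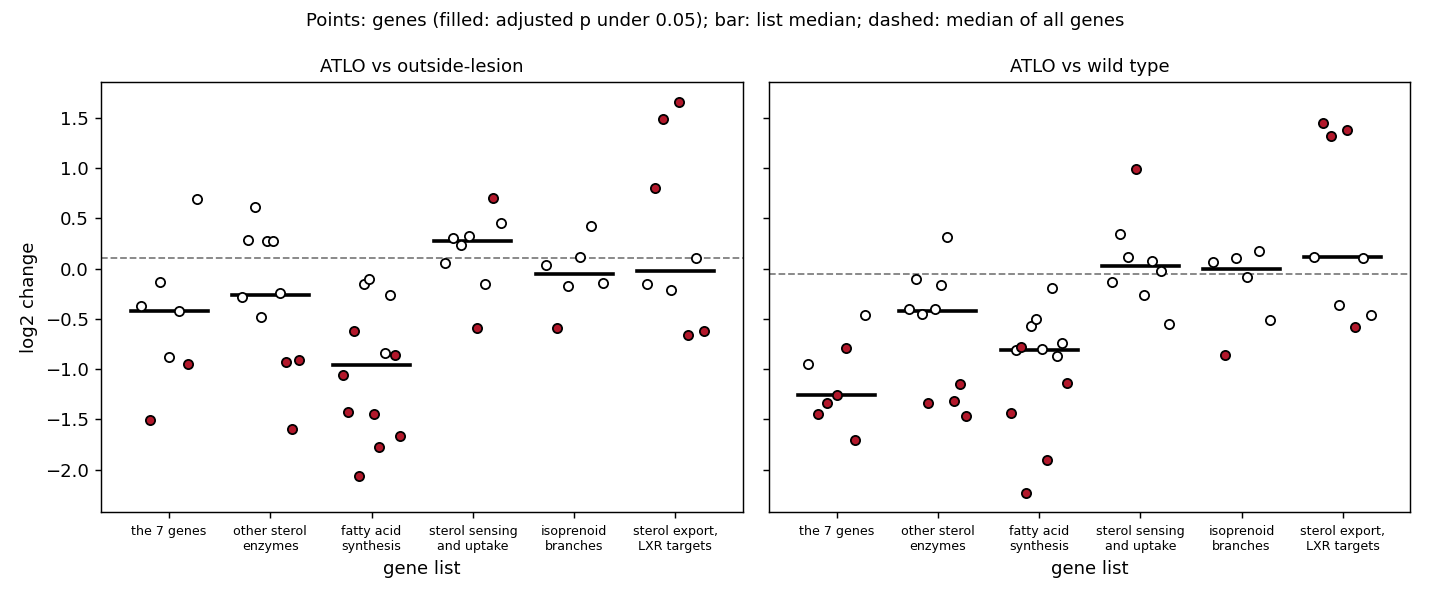
Log2 changes of the 7 genes and of 5 related lists in ATLO against outside-lesion adventitia and in ATLO against wild type, filled where the adjusted p was under 0.05, with list medians as bars and the median of all genes as a dashed line. The medians of the 7 genes are -0.42 and -1.26, those of fatty acid synthesis -0.96 and -0.81, and Abcg1, Ch25h and Cyp7b1 stand above 0 in both panels.

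Over the 11 arrays the 7 genes varied together to different degrees. The Pearson correlation of log2 signals between 2 of them lay between 0.15 and 0.86 over 21 pairs, with a median of 0.62, and for deviations from the group means between -0.22 and 0.84 with a median of 0.52. Arrays share their scaling, so part of any such correlation can come from the array. Among 9048 other genes, the one most like the mean of the 7, each standardised over the arrays, was Idi1 (Pearson r = 0.98, Spearman rho = 0.95, n = 11 arrays). It stayed at r = 0.97 without wild-type replicate 1 and outside-lesion replicate 1, the arrays farthest from the median, and at 0.94 for deviations from the group means. The next were Tmem60, Arl2bp and Exosc2 at r = 0.91 each, and Snapin, Hebp2, Tfcp2 and Apbb1 at 0.90. None of these is a sterol enzyme. Of the other sterol enzymes Nsdhl stood at rank 16 (r = 0.88) and Ebp at rank 3676 (r = 0.21).

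**Figure D5:**
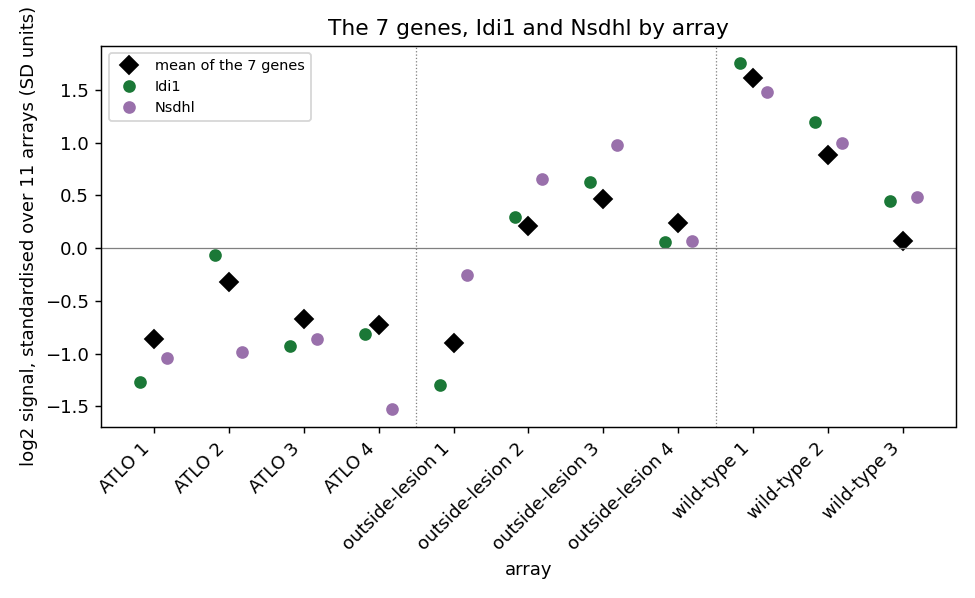
Mean of the standardised log2 signals of the 7 genes, and standardised log2 signals of Idi1 and Nsdhl, on each of the 11 arrays in SD units. The mean of the 7 genes lies between -0.86 and -0.32 on the ATLO arrays, between -0.90 and 0.47 on the outside-lesion arrays, where replicate 1 is lowest, and between 0.07 and 1.61 on the wild-type arrays, where replicate 1 is highest.

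Wild-type replicate 1, which read highest of all arrays for Fdps, Sqle, Cyp51 and Sc5d, also stood apart in neuron genes. All 3 wild-type titles carry the letters PNS. The summed signal of 8 neuron markers lay between 1420 and 5829 in ATLO, between 425 and 7599 outside the lesion and between 820 and 19830 in wild type, highest on that array. Stmn2, a neuron gene of that list, read 3414 on wild-type replicate 1, and 98.9 to 1159 on the other arrays. On wild-type replicates 2 and 3 Stmn2 read 209.0 and 603.7. The mean standardised log2 signal of the cholesterol synthesis genes was 1.61, 0.88 and 0.07 on wild-type replicates 1, 2 and 3. Of the 8 neuron markers, 0 were called by limma for ATLO in either comparison. Their median log2 change was 1.24 against outside-lesion adventitia, with 0 estimates below 0, and -0.16 against wild type, with 5 below 0. For outside-lesion adventitia against wild type it was -1.41, with all 8 below 0. The part of neuron content in the changes of the cholesterol synthesis genes was not tested.

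Cell type markers also differed between the groups, some lists lower in ATLO and others higher. Over all genes, 14.9% were called lower and 19.8% higher in ATLO against outside-lesion adventitia. Against wild type these shares were 14% and 13.4%. The median log2 changes of the adipocyte markers were -1.35 against outside-lesion adventitia and -0.76 against wild type. For outside-lesion adventitia against wild type the median was 0.77 for adipocyte, 0.47 for endothelial and 0.2 for brown fat markers. The other marker lists of this paragraph had medians there from -0.79 (smooth muscle) to -0.04 (plasma cell). That of the 7 genes was -0.57, and that of all genes -0.12. Of 8 adipocyte markers, 7 fell in ATLO against outside-lesion adventitia and 4 against wild type, with summed signals of 31289 to 86633 in ATLO, 115611 to 192581 outside the lesion and 74291 to 87965 in wild type. Of 6 brown fat markers, 5 fell in both comparisons (sums of 1600 to 5230 in ATLO, 7068 to 76639 outside the lesion and 15745 to 44279 in wild type). Macrophage markers rose in ATLO, 10 of 11 against outside-lesion adventitia and 7 of 11 against wild type (sums of 49138 to 82692 in ATLO, 17823 to 31863 outside the lesion and 22333 to 31161 in wild type). B cell markers rose for 5 of 5 against outside-lesion adventitia and 4 of 5 against wild type (8061 to 21019 in ATLO, 610 to 1819 outside the lesion and 547 to 6493 in wild type). T cell markers rose for 6 of 6 in both (3290 to 6420 in ATLO, 470 to 741 outside the lesion and 555 to 1275 in wild type). Of 7 Schwann cell and myelin markers, made by cells rich in cholesterol, 1 fell against outside-lesion adventitia and 0 against wild type (6007 to 8979 in ATLO, 5792 to 9240 outside the lesion and 6627 to 11356 in wild type). Their median log2 change was -0.02 against outside-lesion adventitia and -0.42 against wild type. All 7 estimates against wild type lay below 0, as did 53.3% of those of all genes. Smooth muscle markers fell for 1 of 6 against outside-lesion adventitia (median log2 change -0.52) and 4 of 6 against wild type (median -1.21), with sums of 10896 to 29665 in ATLO, 18559 to 57445 outside the lesion and 38490 to 42556 in wild type. Endothelial markers fell for 3 of 6 against outside-lesion adventitia and 2 of 6 against wild type (2236 to 3647 in ATLO, 3773 to 9987 outside the lesion and 3401 to 4886 in wild type). Plasma cell markers rose for 5 of 5 in both comparisons (30687 to 76358 in ATLO, 12968 to 18444 outside the lesion and 10984 to 21208 in wild type). Fibroblast markers rose for 4 of 6 against outside-lesion adventitia and 3 of 6 against wild type (43503 to 80091 in ATLO, 23699 to 57433 outside the lesion and 39098 to 44780 in wild type). Markers of dividing cells rose for 4 of 5 against outside-lesion adventitia and 2 of 5 against wild type (1488 to 3069 in ATLO, 344 to 666 outside the lesion and 342 to 1761 in wild type). Of 2 hepatocyte markers tested, 1 fell against outside-lesion adventitia and 2 against wild type (108 to 159 in ATLO, 189 to 283 outside the lesion and 355 to 473 in wild type). Of 3 steroidogenic cell markers tested, 1 fell against outside-lesion adventitia and 0 against wild type (256 to 397 in ATLO, 309 to 552 outside the lesion and 517 to 547 in wild type). No marker of these lists lay below the floor on every array of a group. The part of these shifts in the changes of the 7 genes was not tested.

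For the actin control, signal at the 3' end over that at the 5' end, a ratio that grows as RNA degrades, lay between 1.71 and 8.14 in ATLO, between 6.22 and 12 outside the lesion and between 4.19 and 5.40 in wild type. The same ratio for the Gapdh control lay between 1.09 and 3.18 in ATLO, highest on replicate 3. It lay between 1.27 and 2.13 outside the lesion and between 1.1 and 1.3 in wild type, and was not used as a covariate. With the actin ratio as a covariate, the Fdft1 change between ATLO and outside-lesion adventitia was -1.40 ± 0.53, near the -1.51 without it but with a wider error, and was no longer called (limma adjusted p = 0.0961, the highest of 24 alternatives, which began at 0.00181). Sc5d was still called there (-1.34 ± 0.39, adjusted p = 0.0366). Against wild type, Hmgcs1 lost its call with the covariate (-1.16 ± 0.41, adjusted p = 0.0563) and Cyp51 gained one (-1.12 ± 0.36, adjusted p = 0.0410), while Fdps, Fdft1, Lss and Sc5d were called with and without it.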

How the data were processed

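Deposited values were linear signal intensities, 1 per probe set and array, computed by the authors with GCOS 1.4 per the submitters' processing notes. Their mean without the lowest and highest 2% of probe sets was 500.2 to 500.3 on every array, so arrays had been scaled to a common level. The median signal was 152.3 to 191.7. No detection calls or read depths go with such values, and the number of arrays limits the precision.

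After leaving out 64 control probe sets of 22690, signals below 35.1, the 20th percentile, were raised to it and log2 taken. Probe sets above their array's 40th percentile on at least 3 arrays were tested with limma 3.58.1 (R 4.3.3; lmFit, eBayes with an intensity trend) on group means of all 11 arrays, and Benjamini-Hochberg adjustment ran over all tested. Of 22626 probe sets, 20380 had 1 gene symbol, 691 several and 1555 none. Genes were named only from single symbols. From each list and comparison, the genes called were named, or beyond 2 such genes at least the 2 with the largest change. The genes, lists and tests were chosen with earlier results of these data known. The limma fit was tested on simulated data. Alternatives covered the floor, filter, scaling, model and single arrays. Replicate numbers did not pair arrays between groups (correlations of same-numbered deviations -0.18 to 0.27).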

Additional observations from a re-analysis of the deposited data

Results flagged for a closer look

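Among 70 sets of 4 arrays checked for a single array far from the other 3, 3 were found, and chance gives about 1 in 20. Sqle read 206 on ATLO replicate 4, where the other ATLO arrays gave 382 to 417. Npc1, which passes on sterols from the lysosome, read 375 on outside-lesion replicate 1 and 271 to 280 on the other outside-lesion arrays. Lpcat3, the phospholipid remodelling enzyme, read 666 on outside-lesion replicate 1 and 1130 to 1180 on the others.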

How the results depend on the processing

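Sc5d was called lower in ATLO than in wild type under all 24 alternatives (limma adjusted p = 6.51e-04 to 0.0206, log2 change -2.01 to -1.07), and Fdft1 lower than outside the lesion in 22 of 24. Against wild type, Hmgcs1 lost its call in 8 of 24 (adjusted p up to 0.119), Fdft1 in 5 (up to 0.117), Lss in 4 (up to 0.0782) and Fdps in 3 (up to 0.114), and Sc5d against outside-lesion adventitia in 7 (up to 0.108), all without a change of sign. Of the 7 genes, the count lower in ATLO than outside the lesion was 2; it was 0 with no filter, 4 with array weights, 1 with no intensity trend and 1 with the actin ratio as a covariate, and 1 to 3 when leaving out single arrays. Against wild type it was 5; it was 2 with no filter and 1 to 5 when leaving out single arrays. Over all probe sets, the actin covariate gave 2552 calls between ATLO and outside-lesion adventitia instead of 4777. Between outside-lesion and wild-type adventitia 489 calls became 301 with no filter, 202 with only those 2 groups, 1530 with array weights, 248 with no intensity trend, 86 with the actin covariate, and 21 to 886 when leaving out single arrays. With the replicate block they were 189, and the 7 genes gave 3, 5 and 0 calls in the 3 comparisons. Estimates that were never called changed sign in places. Fdps for ATLO against outside-lesion adventitia became 0.05 without ATLO replicate 3 and 0.07 without outside-lesion replicate 2 (range -0.50 to 0.07). Sqle for ATLO against wild type became 0.02 without wild-type replicate 1 (range -0.91 to 0.02). For outside-lesion adventitia against wild type, Fdft1 became -0.08 with the replicate block, -0.01 with the actin covariate and ranged from -0.54 to 0.44 when leaving out single arrays, and Hmgcs1 ranged from -0.69 to 0.00. The causes were not tested. Setting all arrays to equal medians turned the share of higher calls from 56.3% to 44.1% for ATLO against outside-lesion adventitia and from 52.8% to 87.3% for outside-lesion adventitia against wild type. The 7 genes kept their directions there.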
